A study of Mus musculus with 32 samples.

Results

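The genes described here are 8 that are known from injured nerve and from reactive glia: Gfap, Vim, Serpina3n, Cd44, Gap43, Ngfr, Sprr1a and S100b. They were taken by symbol and not by a rule on their values, but the list was drawn up with earlier results of these data known. All 8 were listed in each of the 32 libraries, among 39399 genes listed for both mouse strains and 43947 listed for the Sox2 strain. The libraries were made from cochleae of 10-week-old mice that carried the RiboTag allele, which puts an HA tag on the ribosomal protein Rpl22 in cells where Cre has acted. PrestinCre/+;RiboTagHA/+ mice (PrestinCreERT2;RiboTag;CBA in the design text) served for outer hair cells, and Sox2Cre/+;RiboTagHA/+ mice (Sox2CreERT2;RiboTag;CBA) for supporting cells. Noise-exposed mice of both strains received 105 dB SPL for 2 h and were dissected 6 h or 24 h later, and control mice of both strains received no noise. From each homogenate the authors took an input, RNA of the whole cochlea, and used the HA antibody to pull down the RNA bound to tagged ribosomes (IP). Each of the 6 Prestin groups had 3 libraries. For the Sox2 strain 2 control homogenates, 2 at 6 h and 3 at 24 h were analysed, each with its IP and its input. The labels call the libraries biological triplicates and do not say whether a homogenate pooled several mice, so the p-values measure the spread between homogenates.

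Glia respond to injury with a change of state in which they build more intermediate filament protein, secrete protease inhibitors and change their surface receptors. GFAP and vimentin are the filament proteins by which reactive astrocytes are usually recognised, and Schwann cells also make both. Cut peripheral axons switch on growth genes such as Gap43 and Sprr1a, while Schwann cells that have lost their axon raise the neurotrophin receptor p75, the product of Ngfr. In the cochlea the peripheral glia are the Schwann cells and satellite cells of the auditory nerve and spiral ganglion, and the supporting cells of the organ of Corti share some glial genes, Sox2 among them.

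By the GENCODE M21 annotation of the GRCm38 build, all 8 are protein-coding genes. Gfap lies at chr11:102887336-102900912 and Ngfr at chr11:95568818-95587735, both on the minus strand. Vim lies at chr2:13573927-13582826 on the plus strand and Cd44 at chr2:102811141-102901665 on the minus strand. Serpina3n lies at chr12:104406729-104414329 on the plus strand, inside a cluster of similar serpin genes, and Sprr1a at chr3:92483952-92485895 on the minus strand, among other Sprr genes. Gap43 lies at chr16:42248442-42340651 on the minus strand and S100b at chr10:76253853-76261159 on the plus strand. S100b overlaps Dip2a on the other strand and Gfap overlaps the noncoding RNA gene Gm26668 on the other strand. Whether the authors counted reads by strand is not given in the sources used here, so reads of these pairs cannot be told apart.

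Values are TPM, a gene's share of the transcripts of a library, scaled for gene length, that can be compared between genes of a library and that keeps no read depth. TPM were computed over a different number of genes in the 2 strains, so levels of the 2 strains are set side by side without a test. The number of genes above 0 TPM was 15929 to 16966 in the 4 Sox2 libraries at 6 h, which is fewer than in the remaining 10 Sox2 libraries (17395 to 21239) and in the 18 Prestin libraries (18592 to 19764). Mitochondrial genes held 20.5% to 28.6% of TPM in inputs and 3.07% to 13.7% in IPs. The pull-downs carried the genes of their labelled cells: Slc26a5, which encodes prestin, was 2.46 ± 0.23 (log2 ± SE) higher in Prestin IPs than in inputs, and Sox2 was 3.19 ± 0.20 higher in Sox2 IPs. Rpl22 differed by -0.27 and 0.18. The Sox2 IPs also held more RNA of Schwann and satellite glia: 14 of 14 markers were higher than in inputs, Foxd3 by 3.57 and Cnp by 2.80, with a median log2 difference of 2.33, beside 10 of 12 supporting cell markers with a median of 2.29. Of all genes tested 55.2% were higher in Sox2 IPs, with a median of 0.65.

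The 8 levels spanned a wide range. In control inputs S100b, which encodes a calcium-binding protein of Schwann cells and other glia, was first in both strains, at 4068 ± 62.1 TPM (SD, n = 3) in the Prestin strain and 5711 and 6009 TPM in the Sox2 strain. Vim, a filament gene of many mesenchymal and glial cells, followed at 79.6 ± 5.05 TPM and at 86.3 and 74.9 TPM. Ngfr, Gfap and Cd44 lay between 2.13 and 24.8 TPM, with overlapping libraries. Sprr1a and Gap43 were at most 2.88 TPM in any control input. Serpina3n, which encodes a secreted inhibitor of serine proteases, stood apart between the strains: its 3 Prestin control inputs were at 0.275, 0.607 and 0.62 TPM, and its 2 Sox2 control inputs at 7.49 and 10.4 TPM.

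**Figure D1:**
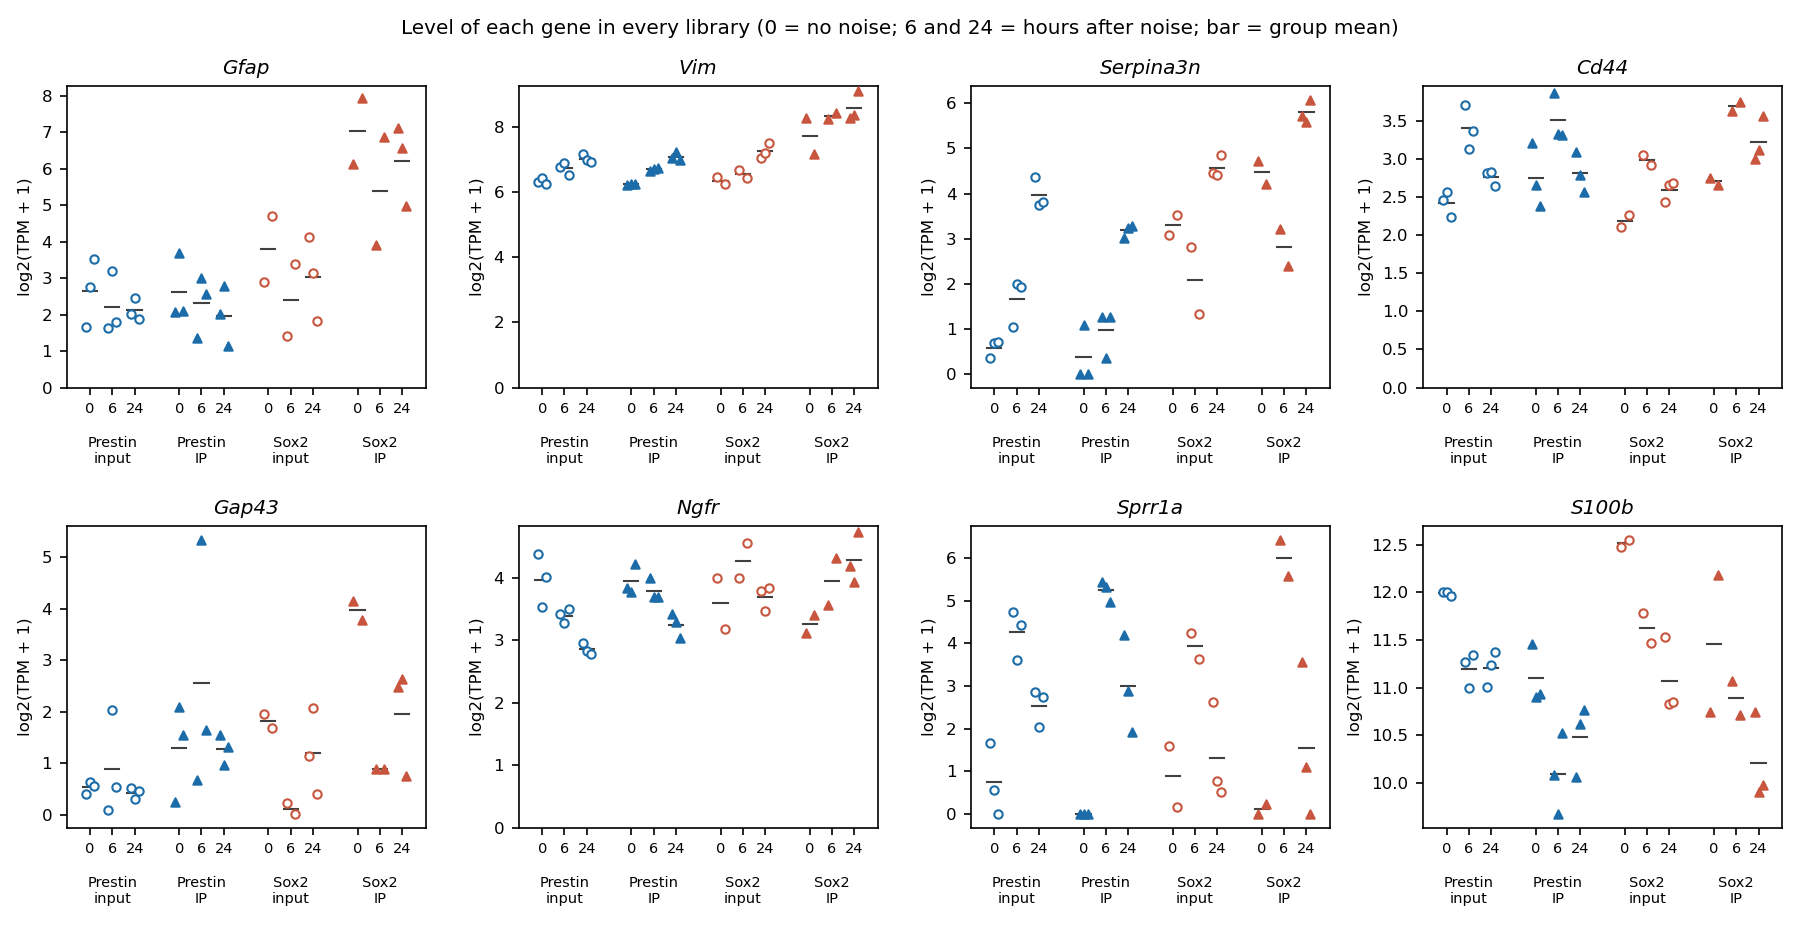
Level of the 8 genes in each of the 32 libraries, as log2(TPM + 1) on the vertical axis, by strain, fraction and hours after noise on the horizontal axis (0 is no noise); circles are inputs, triangles IPs, short bars group means, and the S100b axis does not start at 0. Gfap is high in the Sox2 IPs, Sprr1a peaks at 6 h in all 4 series, Serpina3n is highest at 24 h in all 4, and S100b is highest in the control inputs.

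Which cells hold these transcripts was addressed by comparing each IP with the input of its strain, as a mean over the 3 conditions. Gfap, Vim, Serpina3n, Cd44 and Gap43 were higher in Sox2 IPs than in Sox2 inputs, and S100b was lower. In the Prestin strain Ngfr was higher in IPs by a small amount, and Serpina3n and S100b were lower. Of the 8 genes 6 were called in the Sox2 strain and 3 in the Prestin strain (limma, adjusted p under 0.05). These fits did not pair IP and input by homogenate, so their SE includes the spread of level between homogenates. With the homogenate as a block Gap43 was added in the Prestin strain. Most genes differ between IP and input: 57.9% of the genes tested were called in the Sox2 strain and 76.1% in the Prestin strain, so these counts are not read as a property of the 8 genes. The median gene was itself 0.65 higher in Sox2 IPs and 0.82 higher in Prestin IPs, and the differences of the called genes are therefore also given relative to that median.

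Gfap showed the largest separation. In the Sox2 IPs it was at 69.4 and 242.5 TPM without noise, 13.9 and 116.9 TPM at 6 h, and 137.3, 94.6 and 30.4 TPM at 24 h. The inputs of the same homogenates, in the same order, were at 6.41 and 24.8, then 1.69 and 9.39, then 16.3, 7.75 and 2.56 TPM. The IP lay above its own input in all 7 homogenates, by 2.47 to 3.50 on the log2 scale, and the levels of the 3 conditions overlapped in both IPs and inputs. The difference was 3.14 ± 0.66 (limma, adjusted p = 0.00218), or 2.50 above the median gene. In the Prestin strain Gfap was at 1.18 to 11.8 TPM in IPs and at 2.10 to 10.45 TPM in inputs, and the IP was higher in 5 of 9 homogenates and lower in 4.

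Vim was at 143.2 to 548.9 TPM in the Sox2 IPs and at 74.9 to 178.4 TPM in the Sox2 inputs, and each of the 7 IPs lay above its input. Its difference was 1.498 ± 0.193 (limma, adjusted p = 8.03e-05), which is 0.85 above the median gene. In the Prestin strain Vim differed by -0.03 ± 0.06 with a 95% interval of -0.16 to 0.11. Serpina3n was 1.04 ± 0.24 higher in Sox2 IPs (limma, adjusted p = 0.00413), or 0.40 above the median gene, and the IP was higher in 7 of 7 homogenates. In Prestin IPs it was lower, at -0.56 ± 0.20 (limma, adjusted p = 0.0172) and -1.38 relative to the median gene, with the IP lower in 7 of 9 homogenates, and without the homogenate of Prestin 6 h replicate 2, Prestin 24 h replicate 1 or Prestin control replicate 3 the adjusted p was 0.0619 to 0.0721.

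Cd44 encodes the cell surface receptor for hyaluronan. It was 0.62 ± 0.11 higher in Sox2 IPs (limma, adjusted p = 0.000787) and higher in 7 of 7 homogenates, but its difference was -0.03 relative to the median gene. Median-of-ratios scaling, which moves the whole comparison toward a median of 0, gave -0.17. Gap43 encodes a membrane protein of growing axon tips. It was 1.22 ± 0.34 higher in Sox2 IPs (limma, adjusted p = 0.0112), or 0.58 above the median gene, and did not pass without the homogenate of Sox2 6 h replicate 4, Sox2 control replicate 1 or Sox2 control replicate 4 (adjusted p = 0.0595, 0.0605 and 0.0568). In Prestin IPs Gap43 differed by 1.09 ± 0.51 (limma, adjusted p = 0.0649), and with the homogenate as a block, since IP and input are aliquots of 1 homogenate, the adjusted p was 0.00811. Ngfr was 0.26 ± 0.11 higher in Prestin IPs (limma, adjusted p = 0.0468), which is -0.56 relative to the median gene (-0.73 with median-of-ratios scaling), and the call was lost in 8 of the 9 fits with 1 homogenate left out (adjusted p up to 0.119).

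S100b was lower in the IPs of both strains and in all 16 homogenates, by -0.91 ± 0.13 in the Prestin strain (limma, adjusted p = 1.39e-05) and by -0.88 ± 0.24 in the Sox2 strain (limma, adjusted p = 0.00971), which is -1.72 and -1.53 relative to the median gene. The Sox2 IPs held 958.5 to 4641 TPM of it. In contrast to S100b, 14 of 14 Schwann and satellite glia markers were higher in the Sox2 IPs. Sprr1a differed by 0.23 ± 0.29 in the Prestin strain and by 0.52 ± 0.58 in the Sox2 strain, and neither was called.

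**Figure D2:**
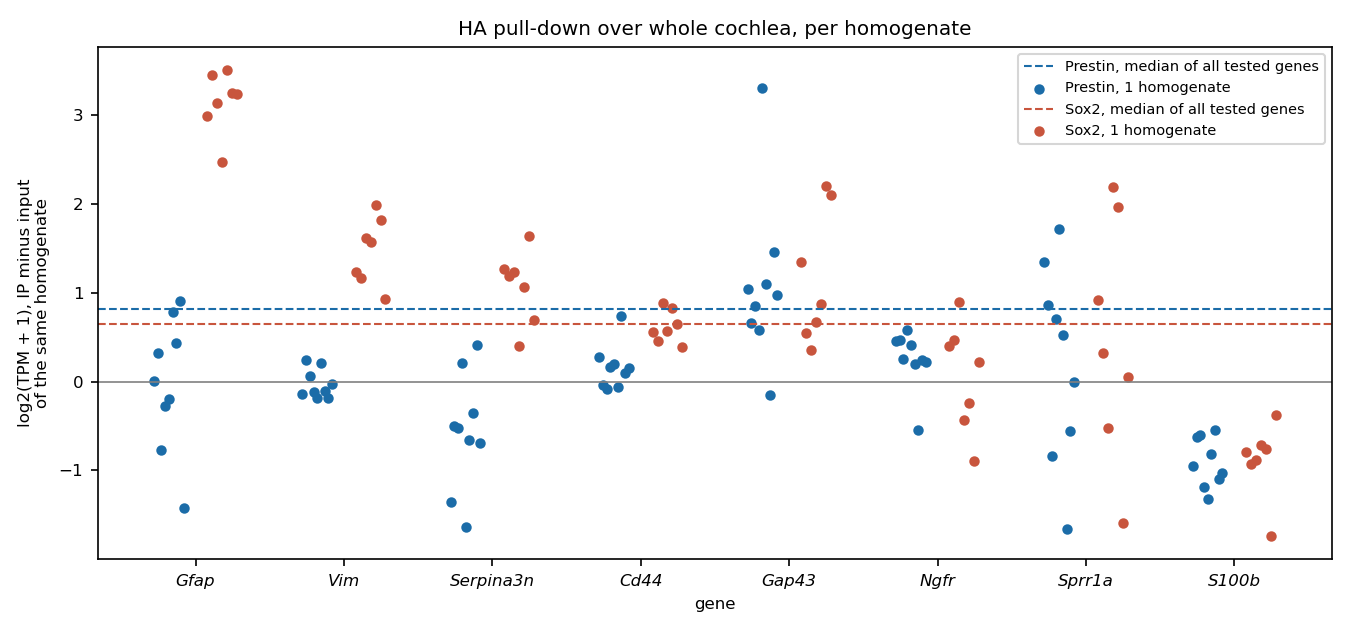
Difference between IP and input of the same homogenate on the log2(TPM + 1) scale (vertical axis) for each gene (horizontal axis); each point is 1 of 9 Prestin or 7 Sox2 homogenates and dashed lines are the median of all tested genes, 0.82 and 0.65. All 7 Sox2 points of Gfap lie between 2.47 and 3.50, and all 16 points of S100b lie under 0.

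The difference between the strains' enrichments (Prestin minus Sox2, all 32 libraries) was called for 3 of the 8 genes, all lower in the Prestin strain, where 21.6% of all genes tested were called. It was -3.16 ± 0.73 for Gfap (limma, adjusted p = 0.00383), -1.52 ± 0.18 for Vim (adjusted p = 5.35e-06) and -1.61 ± 0.32 for Serpina3n (adjusted p = 0.00114). The median gene differed by 0.19. Cd44 differed by -0.46 ± 0.18 (adjusted p = 0.0687), and with the homogenate as a block its adjusted p was 0.0262. Among the glia markers 11 of 14 were lower in the Prestin strain by the same test, with a median of -1.45, as were 7 of 12 supporting cell markers, beside 7.62% of all genes tested. The part of either cell type in the levels of Gfap and Vim was not tested. Of the filament genes related to both, none of 8 was called (limma), with a median of 0.10.

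After noise the whole cochlea changed at both times. At 6 h Sprr1a and Cd44 were higher and S100b was lower, and at 24 h Vim and Serpina3n were higher while S100b remained below its control level. Of the 8 genes, 3 were called at 6 h and 3 at 24 h (limma, 16 inputs, strain in the model), where the background was 8.54% and 4.44% of genes tested. Between 24 h and 6 h 4 were called, 2 in each direction, where the background was 16.1%. In a bulk sample, fewer cells of a type and less RNA per cell cannot be told apart.

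Sprr1a encodes a small proline-rich protein of the epidermal envelope that injured sensory neurons also make. In the Prestin inputs it was at 2.15, 0.475 and 0 TPM without noise, at 25.8, 11.2 and 20.8 TPM at 6 h and at 6.23, 3.08 and 5.69 TPM at 24 h. In the Sox2 inputs it was at 2.02 and 0.125 TPM, then at 17.98 and 11.4 TPM, then at 5.22, 0.711 and 0.431 TPM. No input at 6 h overlapped the controls or the 24 h inputs of its strain. The mean went from 0.874 to 19.2 TPM in the Prestin strain and from 1.07 to 14.7 TPM in the Sox2 strain; since 1 control library carries most of each control mean, no fold is given. The fit gave 3.34 ± 0.47 (limma on log2(TPM + 1), adjusted p = 0.000551), and 3.07 to 3.65 with any 1 input left out. Between 6 h and 24 h it fell by 2.16 ± 0.45 (adjusted p = 0.00545), and at 24 h it was 1.18 ± 0.45 above control (adjusted p = 0.202), with no overlap in the Prestin strain and overlap in the Sox2 strain.

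Cd44 followed the same course at a smaller size. The Prestin inputs were at 4.51, 4.92 and 3.71 TPM, then at 11.99, 7.75 and 9.33 TPM, then at 6.03, 6.09 and 5.24 TPM. The Sox2 inputs were at 3.30 and 3.80, then 7.31 and 6.55, then 4.41, 5.30 and 5.40 TPM. In both strains every 6 h input was above every 24 h input, and every 24 h input was above every control. The rise at 6 h was 2.21-fold and 1.95-fold in means and 0.91 ± 0.11 in the fit (adjusted p = 0.00015). Cd44 then fell by 0.53 ± 0.10 to 24 h (adjusted p = 0.00349), when it was 0.38 ± 0.10 above control (adjusted p = 0.0606).

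Vim rose later. In the Prestin inputs it was at 78.4, 85.2 and 75.3 TPM, then at 107.7, 117.9 and 90.9 TPM, then at 143.4, 124.6 and 118.6 TPM. In the Sox2 inputs it was at 86.3 and 74.9 TPM, then at 100.6 and 84.8 TPM, then at 130.7, 145.9 and 178.4 TPM. At 24 h every library of both strains was above every control and 6 h library of its strain, by 1.62-fold and 1.88-fold over control in means and by 0.79 ± 0.11 in the fit (adjusted p = 0.000421). At 6 h the difference was 0.32 ± 0.11 (adjusted p = 0.0935), which passed with median-of-ratios scaling (0.39, adjusted p = 0.0117).

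Serpina3n had the largest change at 24 h and the least even one between strains. The Prestin inputs went from 0.275, 0.607 and 0.62 TPM to 1.07, 2.96 and 2.78 TPM at 6 h and to 19.6, 12.4 and 13.01 TPM at 24 h. The Sox2 inputs went from 7.49 and 10.4 TPM to 6.00 and 1.52 TPM and to 21.0, 20.2 and 27.9 TPM. Every 24 h input was above every other input of its strain, whereas the 6 h inputs lay above all controls in the Prestin strain and under all controls in the Sox2 strain. The mean at 24 h was 29.96-fold the control mean in the Prestin strain and 2.57-fold in the Sox2 strain. The fit over both strains gave 2.49 ± 0.41 at 24 h (adjusted p = 0.00191) and 0.15 ± 0.42 at 6 h (adjusted p = 0.863). The 7 neighbouring serpins of its cluster that were looked up were low, Serpina3g reaching 3.18 TPM in 1 library and Serpina3i 1.203 TPM, and how reads shared by such similar genes were assigned is not given in the sources used here.

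S100b was at 4114, 4093 and 3997 TPM in the Prestin control inputs, at 2458, 2038 and 2587 TPM at 6 h and at 2054, 2412 and 2653 TPM at 24 h. In the Sox2 inputs it was at 5711 and 6009, then 3522 and 2830, then 2958, 1818 and 1845 TPM. No noise-exposed input of either strain reached a control input of its strain. It fell by 0.83 ± 0.16 at 6 h (adjusted p = 0.00494) and by 1.09 ± 0.15 at 24 h (adjusted p = 0.000562), and the times did not differ by the test (-0.26 ± 0.15, adjusted p = 0.284). Of 10 other S100 genes tested, none was lower at 6 h and only S100a1 was lower at 24 h, by 0.31 on the log2 scale (S100a10 was higher at both times). Of the 14 glia markers 1 was called at each time, Erbb3, which was higher by 0.47 and 0.35, and the summed level of the 14 in inputs was 946.9 to 1399 TPM without noise and 772.9 to 1382 TPM after it.

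Ngfr, Gfap and Gap43 were not called in the inputs at either time. Ngfr was at 19.9, 10.6 and 15.1 TPM in the Prestin control inputs, at 9.69, 8.69 and 10.3 TPM at 6 h and at 6.78, 6.08 and 5.90 TPM at 24 h, with no overlap between the 3 conditions. In the Sox2 inputs it was at 15.1 and 8.14, then 14.96 and 22.6, then 12.9, 10.05 and 13.4 TPM, with overlap between control and both later times. In the fit on the Prestin inputs alone Ngfr was lower at 24 h by -1.12 (limma, adjusted p = 0.0185), while over both strains the value was -0.59 ± 0.25 (adjusted p = 0.249). Gfap differed by -0.82 ± 0.54 at 6 h (adjusted p = 0.369) and -0.61 ± 0.52 at 24 h (adjusted p = 0.678), and its groups overlapped in both strains.

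**Figure D3:**
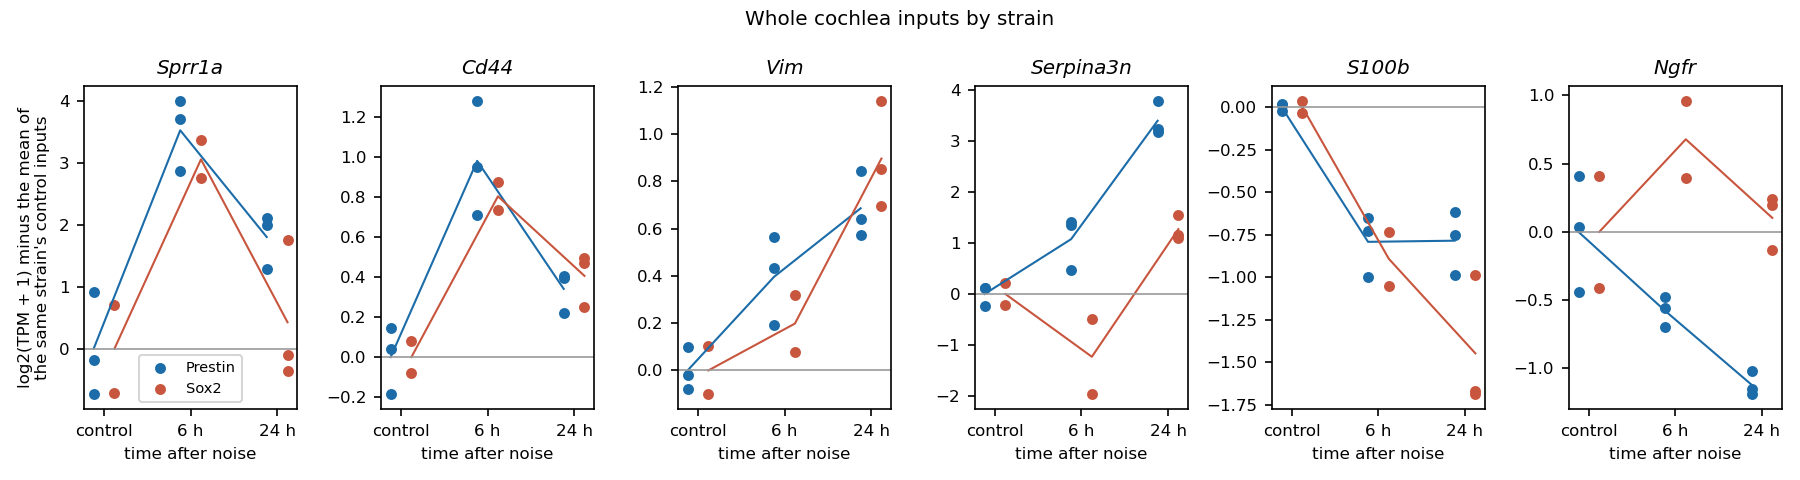
Whole cochlea inputs as log2(TPM + 1) minus the mean of the same strain's controls (vertical axis) at control, 6 h and 24 h (horizontal axis), with 1 point per library and lines through group means. Sprr1a and Cd44 peak at 6 h in both strains, Vim is highest at 24 h, S100b is under 0 after noise, and Serpina3n and Ngfr part between the strains at 6 h.

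The fits on inputs held against the loss of any library: Sprr1a, Cd44 and S100b at 6 h and Vim, Serpina3n and S100b at 24 h passed in all 16 fits with 1 input left out. In the Sox2 inputs alone, with 2 control, 2 6 h and 3 24 h libraries, none of the 8 was called by limma at 6 h or at 24 h. With so few libraries this is not read as the absence of a change. There the 6 h values were 3.06 for Sprr1a (adjusted p = 0.138), 0.80 for Cd44 (0.0836) and -0.89 for S100b (0.153), and the 24 h values were 0.90 for Vim (0.187), 1.27 for Serpina3n (0.555) and -1.45 for S100b (0.137). Whether the inputs of the strains responded differently was tested as an interaction by limma. None of the 8 was called at 6 h (1.02% of genes tested were) or at 24 h (0.00623%). Without adjustment 3 of the 8 had a p under 0.05 at each time, beside 2366 and 1214 of 16041 genes tested. For Serpina3n the Sox2 response was -2.31 ± 0.55 against the Prestin response at 6 h (adjusted p = 0.0766) and -2.12 ± 0.53 at 24 h (adjusted p = 0.305). Without Sox2 input 6 h replicate 2 the first was -3.04 (adjusted p = 0.00245) and that of Ngfr was 1.54 (adjusted p = 0.0351), against 1.26 ± 0.38 (adjusted p = 0.153) with all libraries.

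Lists of genes from the same settings were counted in the inputs by the same fits. Of all genes tested 3.83% rose at 6 h and 3.78% at 24 h, and 3.48% were lower at 24 h than at 6 h. Of 9 further genes of reactive glia, 4 rose at 6 h and 7 at 24 h and none fell, with medians of 0.43 and 1.14 against -0.09 and 0.02 for all genes. Timp1, a metalloprotease inhibitor, rose by 1.07 at 6 h and 3.81 at 24 h, and the chemokine gene Cxcl10 rose by 1.49 and 4.49. Osmr, the receptor for oncostatin M, rose by 0.81 and 1.14. Of 16 genes of nerve regeneration 11 were tested, 5 rose at 6 h and 3 at 24 h, and 5 were lower at 24 h than at 6 h. Tnfrsf12a, a receptor of the TNF family, rose by 2.73 at 6 h and by 1.05 at 24 h, and the injury-induced transcription factor gene Atf3 rose by 2.19 and 0.80. The median of that list was -0.03 at 6 h. Of 8 tested genes of repair Schwann cells only Jun (1.15) and Artn (1.09) rose at 6 h, and none was called at 24 h. Of the partners of CD44, Spp1, which encodes its ligand osteopontin, rose by 0.38 and 0.66, and Msn, which encodes the linker protein moesin, by 0.46 and 0.67. None of 3 tested neurotrophin receptors and ligands was called at either time, and in the filament list only Synm was called, by -0.57 at 6 h and 0.55 at 24 h.

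Markers of other cells moved beside these genes at 24 h. Of 10 macrophage markers 7 were tested, 4 rose at 24 h (Cd68 by 3.15, Fcgr1 by 1.13) and 1 fell at 6 h. The summed level of the 10 was 147.4 to 168.6 TPM in Prestin control inputs and 382.4 to 409.3 TPM at 24 h, and 188.2 to 203.3 TPM and 318.5 to 480.5 TPM in the Sox2 inputs. Of these markers Csf1r had a higher mean at 24 h in the Prestin inputs (5.21 against 4.75 TPM). In the Sox2 inputs its mean was lower (5.80 against 7.23 TPM). Adgre1, Cx3cr1 and Ptprc, which mark these cells as well, were at most 0.872 TPM in all inputs. Their part in the rise of Vim and Serpina3n was not tested. Beside Sprr1a, the 6 markers of stratified epithelium summed to 14.7 to 23.3 TPM in control inputs and to 29.1 to 83.1 TPM at 6 h. Most of that sum was Sfn, which rose by 1.60 at 6 h, with means of 33.2 against 15.4 TPM (Prestin) and 64.5 against 11.4 TPM (Sox2). Krt14 and Krt5 had lower means at 6 h in both strains, Krt14 with 1.05 against 1.87 TPM and 0.917 against 3.197 TPM, and Krt5 with 0.0148 against 0.989 TPM and 0 against 0.25 TPM. Krt15 had a lower mean at 6 h in the Prestin strain (0.645 against 1.90 TPM) and a higher mean in the Sox2 strain (4.63 against 0.806 TPM). Its 2 Sox2 inputs at 6 h were at 0 and 9.26 TPM. Dsg3 was at 0 in 15 of 16 inputs. The part of such cells in the rise of Sprr1a was not tested.

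The first 250 bases before and 50 bases after the start of transcription are printed for the pair that rose at 6 h and the pair that rose at 24 h, from the RefSeq promoter table of GRCm38.p6, which held 7 of the 8 genes. Capitals mark matches to TGANTCA (AP-1, the site of Jun and Fos factors), to TGACGTCA (the cyclic AMP response element, CRE) or to TTCNNNGAA (the STAT site), searched on both strands. These lay at chr3:92485832-92486131, minus strand (Sprr1a), at chr2:102901616-102901915, minus strand (Cd44), at chr2:13574061-13574360, plus strand (Vim) and at chr12:104406458-104406757, plus strand (Serpina3n).
Sprr1a: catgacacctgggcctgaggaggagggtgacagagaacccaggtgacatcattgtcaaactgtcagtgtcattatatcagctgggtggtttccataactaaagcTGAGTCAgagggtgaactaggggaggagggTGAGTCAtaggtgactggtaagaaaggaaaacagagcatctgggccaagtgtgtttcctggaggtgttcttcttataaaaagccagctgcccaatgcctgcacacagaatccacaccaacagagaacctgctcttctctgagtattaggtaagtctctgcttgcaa
Cd44: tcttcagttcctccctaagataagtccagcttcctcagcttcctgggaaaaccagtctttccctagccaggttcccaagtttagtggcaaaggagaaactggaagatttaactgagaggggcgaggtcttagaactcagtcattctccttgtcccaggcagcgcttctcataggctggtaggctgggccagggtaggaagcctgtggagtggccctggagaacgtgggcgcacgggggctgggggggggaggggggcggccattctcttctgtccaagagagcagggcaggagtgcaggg
Vim: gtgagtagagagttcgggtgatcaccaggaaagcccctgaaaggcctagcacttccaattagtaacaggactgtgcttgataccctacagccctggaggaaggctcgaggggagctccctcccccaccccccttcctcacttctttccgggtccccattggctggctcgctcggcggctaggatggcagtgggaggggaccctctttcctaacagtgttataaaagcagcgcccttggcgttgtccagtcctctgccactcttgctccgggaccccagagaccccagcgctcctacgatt
Serpina3n: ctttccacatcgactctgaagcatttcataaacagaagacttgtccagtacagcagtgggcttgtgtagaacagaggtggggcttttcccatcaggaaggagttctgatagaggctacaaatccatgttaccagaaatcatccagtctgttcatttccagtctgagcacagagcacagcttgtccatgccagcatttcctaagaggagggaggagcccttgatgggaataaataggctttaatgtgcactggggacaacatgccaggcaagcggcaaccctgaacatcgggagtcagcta
The Sprr1a window held 2 matches to the AP-1 letters, both TGAGTCA, that begin 146 and 116 bases before the start, and the other 3 windows held no match to the 3 patterns. Of 32851 promoters of the same length in the table, 7.81% held TGANTCA, 8.30% TTCNNNGAA and 1.79% TGACGTCA. Of the remaining genes only Gfap had a match, TTCCAGGAA, which begins 2 bases before its start. A match describes letters only, and the absence of one says nothing of a factor.

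In the Prestin IPs, which were enriched for outer hair cell RNA, Sprr1a was called at 6 h and Vim, Serpina3n and Sprr1a at 24 h, all higher, which is 1 of 8 and 3 of 8 beside a background of 5.63% and 6.23% of genes tested (0.856% and 1.1% of genes tested were called higher). The control IPs stood apart in the nuclear RNA Malat1, at 44030 to 73023 TPM against 12251 to 22823 TPM in the 6 IPs after noise. With TPM rescaled without Malat1 and mitochondrial genes the same 4 calls passed, with Sprr1a at 5.45 and 3.16, Vim at 0.84 and Serpina3n at 2.95, and the part of nuclear RNA in these differences was not tested otherwise. Sprr1a was listed at 0 in all 3 control IPs, at 42.5, 38.9 and 30.4 TPM at 6 h and at 17.3, 6.39 and 2.76 TPM at 24 h. No fold can be given against 0; on the log2(TPM + 1) scale the fit gave 5.25 ± 0.50 at 6 h (limma, adjusted p = 0.00578) and 2.998 ± 0.497 at 24 h (adjusted p = 0.0236). The 3 groups of Sprr1a did not overlap. Its family member Sprr1b was at 4.35 TPM in Prestin IP control replicate 2 and above 0 in no other library. How reads shared by the Sprr genes were assigned is not given in the sources used here. Vim was at 72.8, 75.0 and 74.1 TPM, then at 99.1, 103.7 and 105.4 TPM, then at 130.1, 148.1 and 123.9 TPM, again without overlap. It was 0.47 ± 0.11 above control at 6 h (adjusted p = 0.0554) and 0.84 ± 0.11 at 24 h (adjusted p = 0.0161). Serpina3n was at 0, 1.13 and 0 TPM, at 1.40, 0.278 and 1.41 TPM at 6 h, and at 7.07, 8.48 and 8.75 TPM at 24 h, which is 2.82 ± 0.38 above control (adjusted p = 0.0161).

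These 24 h calls in the Prestin IPs rested on few libraries. Without Prestin IP 24 h replicate 2 none of the 3 passed (adjusted p = 0.0672 for Vim and Serpina3n, 0.0853 for Sprr1a), and without replicate 1 Sprr1a alone did. Without Prestin IP 24 h replicate 3 Serpina3n did not pass (adjusted p = 0.0549), nor did Sprr1a without Prestin IP control replicate 1 or 3 (0.0504 and 0.0544). Over the 9 fits with 1 library left out the difference was 0.77 to 0.90 for Vim, 2.63 to 3.18 for Serpina3n and 2.40 to 3.54 for Sprr1a. The summed macrophage markers were at 89.1 to 137.5 TPM in control IPs and at 222 to 344.6 TPM at 24 h. In these IPs Cd68, Mpeg1, Fcgr1, C1qa, C1qb, C1qc and Cx3cr1 had higher means at 24 h. Csf1r, Ptprc and Adgre1 had lower means. Csf1r was at 5.62 to 8.69 TPM in control and at 3.52 to 4.695 TPM at 24 h, without overlap. The part of macrophages in the differences of Vim, Serpina3n and Sprr1a was not tested. Cd44 was at 8.20, 5.31 and 4.22 TPM in control, 13.6, 9.06 and 8.93 TPM at 6 h, and 7.52, 5.89 and 4.91 TPM at 24 h; its difference at 6 h was 0.75 ± 0.27 (adjusted p = 0.13). S100b was at 2811, 1909 and 1953 TPM, then 1079, 815.7 and 1472 TPM, then 1064, 1570 and 1743 TPM, and its differences were -1.004 ± 0.294 (adjusted p = 0.0815) and -0.62 ± 0.29 (adjusted p = 0.226). Ngfr was at 13.3, 12.7 and 17.8 TPM in control and at 9.71, 8.78 and 7.22 TPM at 24 h, without overlap, a difference of -0.70 ± 0.19 (adjusted p = 0.0665). Between 24 h and 6 h none of the 8 was called by limma, where 0.102% of all genes were. Before adjustment 5 of the 8 had a p under 0.05, beside 1328 of 16703 genes tested.

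The 6 h mean of Gap43 in the Prestin strain was carried by 1 homogenate. In the IPs it was at 0.188, 3.30 and 1.92 TPM in control, at 0.609, 39.5 and 2.13 TPM at 6 h and at 1.95, 0.963 and 1.496 TPM at 24 h. In the inputs it was at most 0.566 TPM except in the same homogenate, replicate 2 at 6 h, where it was at 3.11 TPM. Of the 10 neuron markers, 6 were higher in that IP than in all 8 other Prestin IPs and 4 were higher in that input than in all 8 other Prestin inputs. Stmn2, which encodes a tubulin regulator of growing neurons, was at 31.3 TPM in that IP against 6.37 to 13.9 TPM in the others, and at 21.0 TPM in that input against 3.61 to 9.59 TPM. The abundant neurofilament genes were not among them: Nefl was at 812.6 TPM in that IP against 424.9 to 1128 TPM, Nefm at 65.6 against 36.4 to 150.6 TPM and Nefh at 273.4 against 235.2 to 1130 TPM, while Prph, at 5.01 TPM, was under all others (5.75 to 22.8 TPM). The part of neuronal RNA in the Gap43 level was not tested. The fit gave 1.26 ± 1.09 for Gap43 at 6 h (adjusted p = 0.491).

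In the Sox2 IPs none of the 8 was called at 6 h or at 24 h by limma, where 0.694% and 0.188% of all genes were. An unadjusted p under 0.05 was reached by 4 of the 8 at each time, beside 3173 and 2028 of 17577 genes tested. Sprr1a was at 0 and 0.168 TPM in control, at 85.6 and 47.2 TPM at 6 h and at 10.8, 1.14 and 0 TPM at 24 h, with no overlap at 6 h, and its difference at 6 h was 5.90 ± 1.11 (adjusted p = 0.0883). The 6 h level was the highest of Sprr1a in any group. Cd44 was at 5.74 and 5.31, then 11.3 and 12.4, then 6.99, 7.66 and 10.8 TPM, without overlap between conditions, and the difference at 6 h was 0.98 ± 0.27 (adjusted p = 0.151). Vim was at 307.8 and 143.2, then 300.7 and 338.3, then 309.1, 329.9 and 548.9 TPM, a difference of 0.86 ± 0.40 at 24 h (adjusted p = 0.475).

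Serpina3n in the Sox2 IPs was at 25.5 and 17.4 TPM in control, at 8.26 and 4.27 TPM at 6 h, and at 51.9, 47.1 and 66.7 TPM at 24 h. The 3 conditions did not overlap, with the lowest values at 6 h, as in the Sox2 inputs. Against control the differences were -1.66 ± 0.35 at 6 h (adjusted p = 0.102) and 1.33 ± 0.32 at 24 h (adjusted p = 0.241). From 6 h to 24 h Serpina3n rose by 2.99 ± 0.32 (limma, adjusted p = 0.0421), the 1 call among the 8 genes, where 0.506% of all genes were called. Of the 7 fits with 1 Sox2 IP left out it passed only without 6 h replicate 2, and in the other 6 the adjusted p was 0.0768 to 0.118; the value was 2.59 to 3.40 in all 7.

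Gap43 in the Sox2 IPs was at 16.9 and 12.8 TPM in control, at 0.854 and 0.866 TPM at 6 h, and at 4.59, 5.19 and 0.693 TPM at 24 h. Both control IPs lay above all IPs after noise, and the mean at 6 h was 17.3-fold lower. The inputs of the same homogenates went from 2.88 and 2.23 TPM to 0.169 and 0.0167 TPM at 6 h and to 1.2, 3.24 and 0.320 TPM at 24 h. The difference in the IPs was -3.08 ± 0.66 at 6 h (adjusted p = 0.103) and -2.02 ± 0.60 at 24 h (adjusted p = 0.309), and without Sox2 IP 24 h replicate 3 the 6 h value, unchanged at -3.08, passed at an adjusted p of 0.0484. None of 10 neuron markers was called in these IPs at 6 h, where 0.694% of all genes were, with a median of -0.04. The 10 did not move together. Tubb3 went from 112.2 and 125.4 TPM in control to 55.4 and 56.5 TPM at 6 h, and Stmn2 from 17.9 and 15.6 to 9.92 and 9.65 TPM. Syt1 and Rbfox3 were also lower without overlap, and Snap25 had a lower mean. Nefl, Nefm, Nefh, Prph and Nrn1 had higher means. The part of neuronal RNA in the fall of Gap43 was not tested. The 4 libraries at 6 h are those with the fewest genes above 0 TPM. Olig1, of the repair Schwann cell list, was at 429.9 to 605.1 TPM in the Sox2 control IPs and at 9.17 to 47.8 TPM at 6 h. Its inputs were at 23.0 to 52.1 and 0.232 to 0.446 TPM. Hes5, of the supporting cell list, was at 94.5 to 146 and 0 to 16.4 TPM in the IPs. The IP sums of the supporting cell list overlapped (4701 to 6064 and 5133 to 5639 TPM). The part of detection or of tissue content in the low Gap43 and Serpina3n was not tested.

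Ngfr moved the other way in the Sox2 IPs than in the Prestin IPs, although neither was called: it was at 7.68 and 9.65 TPM in control, 10.9 and 19.0 TPM at 6 h and 17.3, 14.3 and 25.7 TPM at 24 h, a difference of 1.02 ± 0.35 at 24 h (adjusted p = 0.363). Every Sox2 IP after noise lay above both controls. S100b was at 1714 and 4641, then 2147 and 1673, then 1712, 958.5 and 1003 TPM, and Gfap overlapped between all conditions. Their differences at 24 h were -1.26 ± 0.48 (adjusted p = 0.409) and -0.81 ± 1.10 (adjusted p = 0.795).

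**Figure D4:**
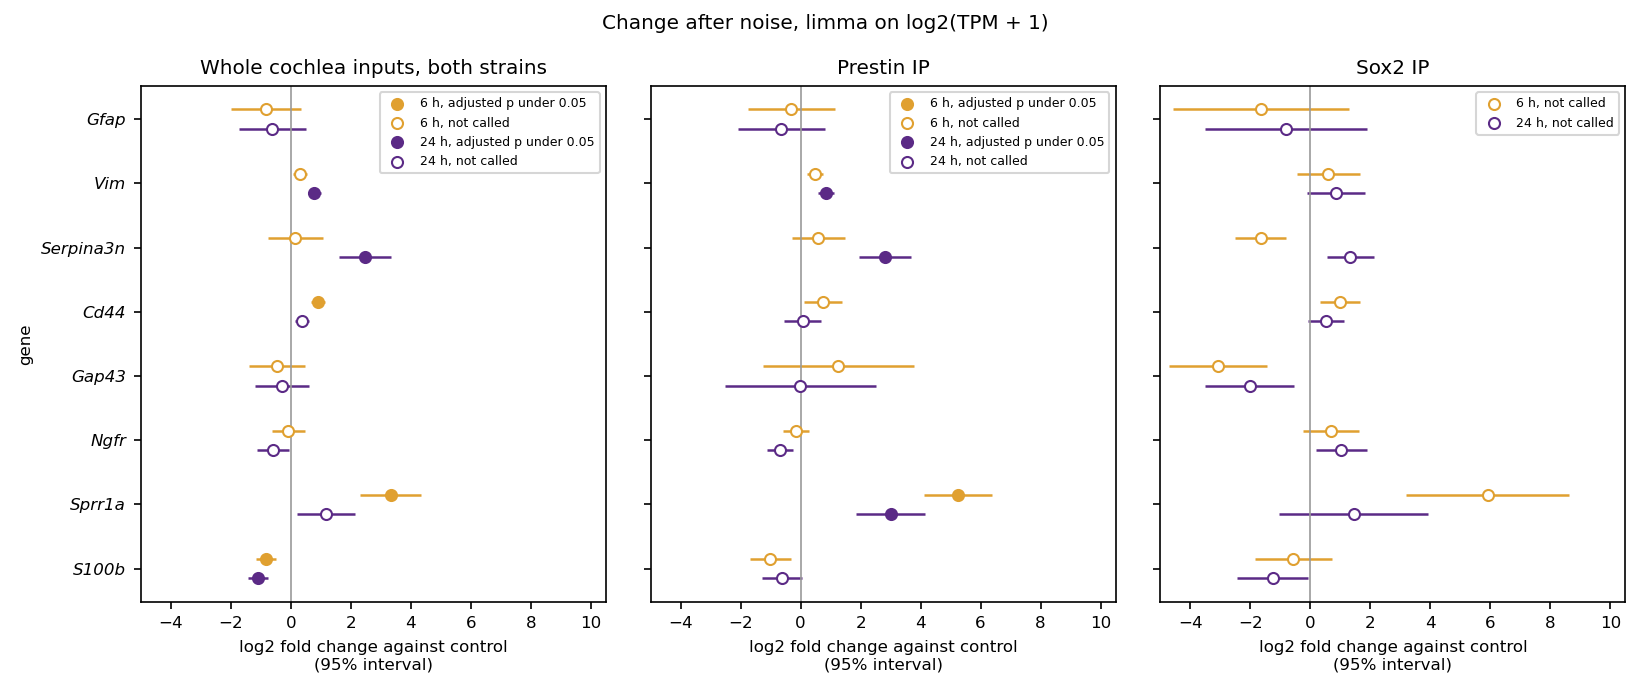
Log2 fold change against control (horizontal axis, with 95% intervals) of the 8 genes (vertical axis) at 6 h and 24 h in whole cochlea inputs of both strains, Prestin IPs and Sox2 IPs; filled points have an adjusted p under 0.05 by limma. Sprr1a at 6 h is the change farthest to the right in each panel, and no point of the Sox2 IPs is filled.

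Whether the pull-downs responded otherwise than the whole cochlea was tested as the IP response minus the input response of each strain, and none of the 8 was called by limma. In the Prestin strain 2.42% of genes were called at 6 h and 1.04% at 24 h. There 1 and 0 of the 8 had an unadjusted p under 0.05, beside 3406 and 3031 of 17363 genes tested. In the Sox2 strain 0.269% and 0.0485% were called. There 0 of the 8 had an unadjusted p under 0.05 at either time, beside 2030 and 1025 of 18560 genes tested. The largest of these differences was that of Sprr1a at 6 h, 1.72 ± 0.72 in the Prestin strain (95% interval 0.18 to 3.25, adjusted p = 0.201) and 2.85 ± 1.496 in the Sox2 strain (-0.49 to 6.18, adjusted p = 0.53). For Vim it was 0.07 with an interval of -0.25 to 0.39 at 6 h in the Prestin strain, and for Cd44 it was -0.22 with an interval of -0.90 to 0.45.

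In the IPs the same lists were counted beside the shares of all genes that rose, 0.856% and 1.1% in Prestin IPs and 0.216% and 0.108% in Sox2 IPs at 6 h and 24 h. In Prestin IPs 2 of 9 reactive glia genes rose at 6 h and 5 at 24 h, Cxcl10 by 2.67 and 5.80, and 5 of 13 tested nerve regeneration genes rose at 6 h, Tnfrsf12a by 3.11 and Atf3 by 2.39. Lif, a cytokine gene of repair Schwann cells, rose by 2.05 at 6 h. In Sox2 IPs Tnfrsf12a rose by 3.49 and Atf3 by 3.22 at 6 h, as 2 of 16 genes of that list, and Hspb1 by 1.95. At 24 h Cxcl10 rose there by 4.64 and Lcn2, which encodes the iron-binding lipocalin of reactive astrocytes, by 4.24.

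Genes whose group means followed each of the 8 most closely were found over the 12 groups, among 9004 genes, as a description in which the groups share mice, strain and scaling. Gfap was followed by Fabp7, a fatty acid binding protein gene that is also among the glia markers above (Pearson r = 0.979 over 12 groups), Id2 (0.977) and Cct5 (0.965). Sprr1a was followed by Gem (0.948), Tnfrsf12a (0.946) and Hspa1b (0.94), and Cd44 by Gadd45b (0.948), Adamts1 (0.918) and Dusp4 (0.911). Gap43 was followed by Slc12a5, the potassium chloride cotransporter gene of neurons (0.97), Cplx2, which encodes a presynaptic complexin (0.958), and Phyhip (0.956). Vim was followed by Mansc4 (0.974), Txndc5 (0.965) and Plxnb2 (0.958), and Serpina3n by H2aj (0.943), Clptm1 (0.937) and Capzb (0.916). Ngfr (0.821 with Efr3a) and S100b (0.875 with Reep5) had the least close companions.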

How the data were processed

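The authors deposited 1 table per library with TPM per gene, a length-scaled share, and each sums to 1000000. Per the submitters' processing notes, TopHat was used with GRCm38; the counter, annotation, versions and strand setting were not given in the sources used here. The depth behind TPM is unknown, and therefore counting intervals are absent. The tests ran in R 4.3.3 with limma 3.58.1 (lmFit, then eBayes with a trend) on log2(TPM + 1), Benjamini-Hochberg adjustment over all genes tested and a threshold of 0.05; this scale understates the change of low genes. Genes had to reach 1 TPM in at least 3 libraries (Prestin fits), 2 (Sox2 fits and fits of both strains by group) or 5 (all inputs, with strain as covariate), and all 8 genes passed in every comparison. Fits used all groups of a fraction and strain, which then share 1 estimate of the spread.

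The 8 genes and the context lists were chosen with earlier results of these data known. Named genes are the 8, up to 4 called genes with the smallest adjusted p per list described, the 3 closest patterns per gene among genes of at least 5 TPM on average, and Slc26a5, Sox2 and Rpl22. Malat1, Serpina3g, Serpina3i and the markers Krt5, Krt14, Krt15, Dsg3, Adgre1, Cx3cr1 and Ptprc fall outside this rule and were chosen after their values were seen. The same holds for Stmn2, Nefl, Nefm, Nefh, Prph, Tubb3, Syt1, Rbfox3, Snap25, Nrn1, Olig1 and Hes5. It also holds for Csf1r, Mpeg1, C1qa, C1qb, C1qc and Sprr1b. IP and input pair by homogenate by design: their deviations correlated with r from 0.0183 to 0.264, in all 16 homogenates more than with other inputs of the group. The Sox2 control and 6 h groups have 2 homogenates each, whose deviations mirror each other. Their 2 values are therefore the same, and each of these groups gives only 1 result. Files were read with pandas 2.3.3 and numpy 2.4.6 in python 3.11.15, and figures drawn with matplotlib 3.10.9. The fits were tested on simulated data. The alternatives covered blocks, scaling by median of ratios, testing unfiltered genes, 0.1 as the pseudocount, rescaling without mitochondrial genes and Malat1, each strain or the controls alone, and leaving out each library. Lists looked up without a result in the text are the endothelial, fibroblast and fibrocyte, and neutrophil markers: in the inputs at 24 h 0 of 7, 2 of 8 (both lower) and 0 of 7 tested members were called. Of 10 outer hair cell markers all 10 were higher in Prestin IPs, as were 68.5% of all genes tested, with medians of 2.46 and 0.82.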

Additional observations from a re-analysis of the deposited data

Results flagged for a closer look

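The pull-down of 3 genes differed between the strains by a test of the difference itself (Prestin enrichment minus Sox2 enrichment, limma): Gfap by -3.16 (adjusted p = 0.00383), Vim by -1.52 (adjusted p = 5.35e-06) and Serpina3n by -1.61 (adjusted p = 0.00114). In the Sox2 strain the IP was above its own input in 7 of 7 homogenates for each of the 3. In the Prestin strain it was above in 5, 3 and 2 of 9 homogenates.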

How the results depend on the processing

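Of the values of the 8 genes over the comparisons and alternatives, 2228 kept their direction and side of the threshold, 58 no longer passed, 25 newly passed and 4 reversed. With median-of-ratios scaling, which moves all genes of an IP against input comparison toward a median of 0, Prestin IP against input gave 6 called genes in place of 3, with Cd44 at -0.77 and Ngfr at -0.73, Cd44 in Sox2 IP against input was -0.17, Prestin IPs at 6 h gave 2, and Sox2 IPs at 24 h against 6 h gave 0. In the controls alone Ngfr was -0.026 in Prestin IP against input, and the counts were 1 (Prestin), 1 (Sox2) and 0 (the difference of enrichments). In the Sox2 inputs alone 0 were called at 6 h and 0 at 24 h, and 24 h against 6 h gave 2 in the Prestin inputs and 1 in the Sox2 inputs. The pseudocount of 0.1 gave 1 call in the input responses of the strains at 6 h, and without a filter Sox2 IPs at 24 h against 6 h gave 0. Replicate numbers were not treated as pairs across conditions. Same-numbered libraries correlated with r from -0.0726 to 0.0622, and differently numbered ones with r from -0.0709 to 0.115. Since IP and input of 1 homogenate gave r as low as 0.0183, these values cannot decide whether the numbers mark a pairing. With the replicate number as a block 0 were called in Prestin IPs at 24 h and 0 in Sox2 IPs at 24 h against 6 h. With the homogenate as a block Gap43 (Prestin IP against input) and Cd44 (difference of enrichments) were added and no other call changed. Leaving out 1 library or homogenate at a time gave 1 to 3 calls for Prestin IP against input, 0 to 3 for Prestin IPs at 24 h, 0 to 1 for Sox2 IPs at 6 h, 0 to 1 for Sox2 IPs at 24 h against 6 h, and 0 to 2 for the input responses of the strains at 6 h. The share of all genes called under each alternative is not given here, so these counts are not read as a property of the 8 genes. The cause of these changes was not tested. Depth is unknown, so which low values, such as those of Sprr1a and Gap43 in controls, rest on few reads cannot be told.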
